A study of Mus musculus with 6 samples.

Results

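Chromosome 10 carried 1363 of the 21835 accessible intervals (6.24%) in a deposited list from mouse fibroblasts that lack Ezh2. The members were chosen by their place on this chromosome (mm10) among intervals that the authors called from the measured signal, so their presence and signal are described and not tested. Accessibility was measured by ATAC-seq, in which a transposase cuts and tags DNA that nucleosomes leave open, on whole cells of a fibroblast line from mouse embryos that c-myc had immortalised. The labels give 2 samples of Ezh2 -/- cells, 2 of Ezh2 -/- cells with a retroviral pMSCV-Ezh2 rescue, and 2 wild-type samples, all of the same immortalised line. The list names the knockout alone and has no value per replicate, and the rescued and wild-type samples were not analysed here. No replicate error or contrast between genotypes can therefore be given, the read depth is unknown, and 1 immortalised line limits how far the values extend to other fibroblasts.

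Ezh2 is the enzyme of Polycomb repressive complex 2, which methylates histone H3 and helps to keep developmental genes silent. Open chromatin in a cell marks mainly the starts of active genes, where general transcription factors hold nucleosomes aside, and distal elements such as enhancers. Starts with many CpG dinucleotides, which are typical of housekeeping genes, tend to be open in most cell types, whereas CpG-poor starts tend to be open only where the gene's own activators are present. Mouse chromosome 10 has its centromere at its low-numbered end. It holds matrix genes such as the collagen VI pair Col6a1 and Col6a2, the growth genes Cdk4 and Mdm2, and a large olfactory receptor cluster.

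Promoter sequences of 6 genes show the range of starts on the chromosome. They come from RefSeq on GRCm38.p6, the assembly behind mm10, run 5′ to 3′ from 250 bases before to 50 bases after a gene's start, and were found for 829 of 1001 protein-coding genes. Capitals mark matches, on either strand, to 6 motifs of which none contains another. The SP/KLF factors were searched as GGGCGG and the factor NF-Y as CCAAT. The cyclic AMP response element (CRE) was searched as TGACGTCA and the AP-1 site, bound by Fos and Jun proteins, as TGANTCA. The TATA box was searched as TATAAA, and the palindromic NRF1 motif is given by name. Cdk4, Mdm2 and Col6a1 had an interval over the start, whereas Eef2, Gadd45b and Nts had none.
Cdk4: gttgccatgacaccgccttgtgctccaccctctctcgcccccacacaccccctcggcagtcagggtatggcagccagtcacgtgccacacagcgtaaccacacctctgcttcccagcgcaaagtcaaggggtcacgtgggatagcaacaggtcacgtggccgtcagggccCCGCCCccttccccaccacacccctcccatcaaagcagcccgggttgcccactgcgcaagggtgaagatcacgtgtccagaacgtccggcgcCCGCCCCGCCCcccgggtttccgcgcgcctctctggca
Mdm2: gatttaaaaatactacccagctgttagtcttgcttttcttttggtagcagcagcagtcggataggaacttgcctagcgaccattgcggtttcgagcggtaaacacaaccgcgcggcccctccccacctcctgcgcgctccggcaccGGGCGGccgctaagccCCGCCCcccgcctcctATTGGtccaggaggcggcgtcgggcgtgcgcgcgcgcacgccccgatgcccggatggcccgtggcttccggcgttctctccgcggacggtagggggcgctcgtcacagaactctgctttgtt
Col6a1: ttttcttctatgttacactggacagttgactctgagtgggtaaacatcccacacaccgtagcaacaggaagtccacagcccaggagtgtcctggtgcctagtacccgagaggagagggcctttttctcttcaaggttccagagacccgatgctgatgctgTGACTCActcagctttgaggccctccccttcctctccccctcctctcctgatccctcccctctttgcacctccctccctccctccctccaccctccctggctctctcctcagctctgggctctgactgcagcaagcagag
Eef2: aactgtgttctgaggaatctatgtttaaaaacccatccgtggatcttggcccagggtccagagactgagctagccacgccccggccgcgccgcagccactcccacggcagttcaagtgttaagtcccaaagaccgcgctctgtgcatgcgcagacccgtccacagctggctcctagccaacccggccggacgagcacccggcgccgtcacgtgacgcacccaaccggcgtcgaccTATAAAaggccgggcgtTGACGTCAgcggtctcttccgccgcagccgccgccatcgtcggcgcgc
Gadd45b: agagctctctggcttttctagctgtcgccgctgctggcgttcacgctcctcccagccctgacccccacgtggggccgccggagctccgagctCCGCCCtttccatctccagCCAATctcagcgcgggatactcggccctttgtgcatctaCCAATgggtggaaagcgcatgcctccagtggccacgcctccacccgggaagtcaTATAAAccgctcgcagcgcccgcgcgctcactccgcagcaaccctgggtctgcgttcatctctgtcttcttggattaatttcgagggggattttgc
Nts: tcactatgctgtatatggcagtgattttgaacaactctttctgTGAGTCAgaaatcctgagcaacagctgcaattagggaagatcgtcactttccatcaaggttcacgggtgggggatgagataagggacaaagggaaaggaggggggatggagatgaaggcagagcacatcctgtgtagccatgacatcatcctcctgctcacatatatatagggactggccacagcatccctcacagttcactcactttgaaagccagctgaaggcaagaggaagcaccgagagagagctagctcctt
The Cdk4 window (chr10:127063285-127063584, plus strand) holds 22 CpG and 3 GGGCGG matches. That of Mdm2 (chr10:117710709-117711008, minus strand) holds 35 CpG, 2 GGGCGG matches and 1 CCAAT match. Col6a1 (chr10:76725995-76726294, minus strand) has 3 CpG and 1 AP-1 match. Among the starts without an interval, Eef2 (chr10:81176381-81176680, plus strand) has 34 CpG, 1 CRE match and 1 TATA match. Gadd45b (chr10:80929841-80930140, plus strand) has 24 CpG, 1 GGGCGG match, 2 CCAAT matches and 1 TATA match. Nts (chr10:102490369-102490668, minus strand) has 3 CpG and 1 AP-1 match. Starts with an interval and starts without one each occurred with few and with many CpG.

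The 1363 intervals on chromosome 10 covered 4.31 Mb, or 3.39% of the sequence between the outermost of them, and their median width was 2594 bp (quartiles 1898 and 3588.5 bp). These intervals came from 1193 called regions, that is, sets of intervals that repeat the same signal values, of which 1051 appeared as 1 interval and 142 as 2 to 5. Total signal is the area under the coverage of a called region and maximum signal is its height, both in the authors' own unit. The median total signal was 30589 (quartiles 20249 and 51003) and the median maximum 26 (quartiles 17 and 41). Over all chromosomes the medians were 29070 and 27. Chromosome 10 had 10.7 intervals per Mb, against 7.02 on chromosome 9 and 20.6 on chromosome 11, its neighbours by number, and 8.54 over all chromosomes. The value over all chromosomes includes X, at 0.829, and chromosome 10 ranked 6 among the 19 autosomes. The median total signals of chromosomes 9 and 11 were 26681 and 32515. None of these differences between chromosomes was tested.

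The intervals were unevenly spread, with most of them beyond 60 Mb. In consecutive 10-Mb bins from the centromeric end there were 60, 39, 37, 50, 58, 67, 137, 232, 277, 90, 12, 87 and 216 intervals, and 1 in the short last bin. The bins from 70 to 90 Mb and from 120 to 130 Mb stood highest, and the bin from 100 to 110 Mb lowest among the whole bins. Coverage was 10.8% of the bin from 80 to 90 Mb and 0.304% of that from 100 to 110 Mb. Intervals went with genes: across the 128 bins of 1 Mb from the first gene on, the number of intervals and of protein-coding genes correlated (Pearson r = 0.83, Spearman rho = 0.71), given as a description of neighbouring bins of 1 list. The median bin held 6 intervals (quartiles 2 and 13), the 5 densest bins held 330 of the 1363 (24.2%), and 16 bins held none. The median gap between neighbouring intervals was 19578.5 bp.

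**Figure D1:**
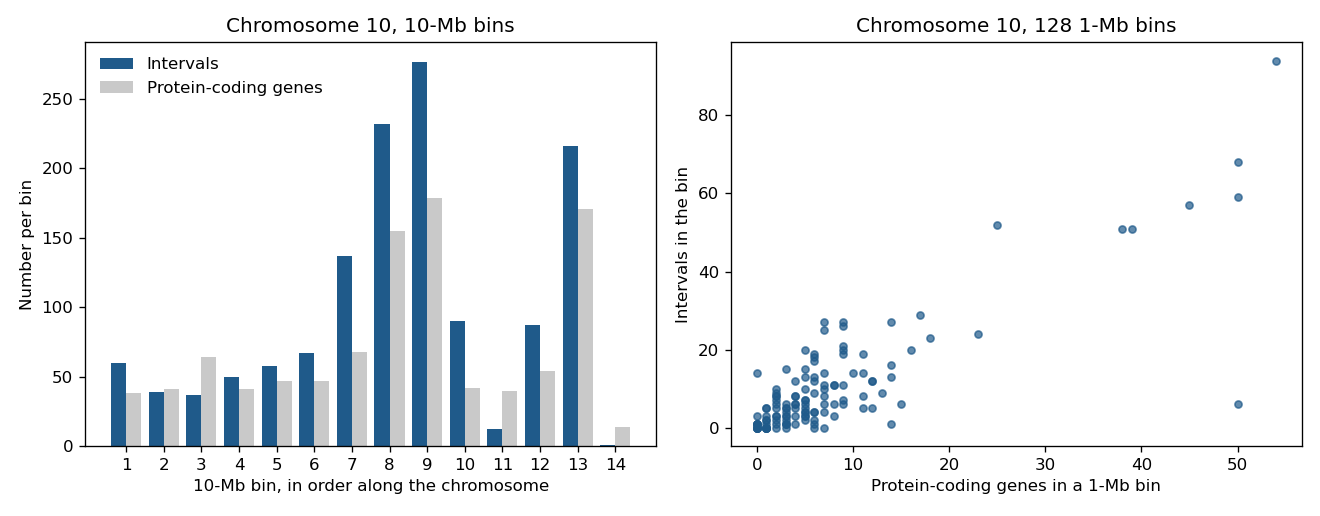
Left, number of intervals (blue) and of protein-coding genes (grey) in each 10-Mb bin of chromosome 10, with bin 1 at the centromeric end. Right, intervals against protein-coding genes for the 128 bins of 1 Mb, each point 1 bin; the densest bin has 94 intervals and 54 genes, and 1 bin with 50 genes has 6 intervals.

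The densest 1-Mb bin lay between 80 and 81 Mb, with 94 intervals that covered 44.5% of it. Of its 54 protein-coding genes 53 had a gene-end interval, that is, one within 1000 bp of either end of the gene. On the whole chromosome 590 of 1001 genes had one (58.9%, exact 95% binomial interval over genes 55.8 to 62.0), and over all chromosomes 47.4%. The share over all chromosomes includes the sex chromosomes, with 11.9% on X. Among the 19 autosomes the share of chromosome 10 ranked 4. Called regions of high total signal lined up along this segment. The one over Ndufs7, a subunit of respiratory complex I, Gamt, which makes creatine, and Dazap1, which encodes an RNA-binding protein, spanned 38659 bp in 3 intervals, at 364909 in total signal and 74 at its maximum. The region over Midn, the cold-inducible RNA-binding protein gene Cirbp, Fam174c and the ephrin ligand gene Efna2 had a total of 328386 and a maximum of 60. That over Mex3d, Mbd3, Uqcr11 and Tcf3 had 326540 and 74; Mbd3 is a subunit of the NuRD chromatin complex, and Tcf3 encodes an E protein. Gadd45b, a stress-response gene, was the only gene of the bin without a gene-end interval, and the nearest interval lay 2123 bp from it.

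The bin just before it, from 79 to 80 Mb, held the highest total signal of the chromosome, 454788 with a maximum of 75, which ranked 2 among 19147 called regions of all chromosomes. This region ran from 79662319 to 79707485 in 5 intervals, over Madcam1, an adhesion molecule gene, Tpgs1, the ubiquitin-conjugating enzyme gene Cdc34, the granzyme gene Gzmm and Bsg, which encodes the membrane glycoprotein basigin. The region over Ptbp1, a splicing regulator, Plppr3 and Prtn3 followed with 313665 and a maximum of 79, and that over Tmem259, the calponin gene Cnn2 and the lipid transporter gene Abca7 with 297117 and 65. Gzmm and Prtn3, genes of cytotoxic lymphocytes and neutrophils, thus had their totals from regions shared with neighbours. In all, 7 of the 10 regions of highest total signal lay between 79 and 81 Mb. The others were at Stat6, Nab2 and Nemp1 (271936), at Pofut2, which encodes a protein O-fucosyltransferase (240393), and at the corepressor genes Tle5 and Tle2 (236358). The interval at Pofut2 was the widest of the chromosome, at 24648 bp, ahead of those at Tle5 and Tle2 (18297 bp), inside Dazap1 (17458 bp), at the nuclear factor I gene Nfic (17323 bp) and at Dazap1, Rps15 and Apc2 (16988 bp).

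The other dense bins lay between 75 and 82 Mb and between 127 and 129 Mb. From 128 to 129 Mb there were 68 intervals, and 47 of 50 genes had a gene-end interval. Dnajc14, the metalloproteinase gene Mmp19 and Tmem198b shared a region of 153759, and the myosin light chain genes Myl6 and Myl6b one of 152324. The lymphoid genes Ikzf4 and Il23a and the primase gene Prim1 were without. From 81 to 82 Mb there were 59 intervals, with 35 of 50 genes covered. Pip5k1c, a lipid kinase gene, the thromboxane receptor gene Tbxa2r and Cactin shared a region of 222946. Eef2, the translation elongation factor gene that every cell uses, had no interval within 13608 bp, and its neighbour Dapk3 and the deacetylase gene Sirt6 had none at their ends either. From 127 to 128 Mb there were 57 intervals and 36 of 45 genes were covered. There Cdk4, the partner kinase of D-type cyclins, shared a region of 193222 and a maximum of 64 with Cyp27b1, the enzyme that activates vitamin D, while Rdh7, Rdh9, Rdh16 and Rdh19, a group of retinol dehydrogenase genes, had none. From 75 to 76 Mb there were 52 intervals over 25 genes, 18 of them covered, led by Ggt1 and Lrrc75b (97772).

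The emptiest whole 10-Mb bin, from 100 to 110 Mb, held 12 intervals for 40 genes, 11 of which had a gene-end interval. The covered genes included Kitl, the ligand of the receptor Kit (total signal 32056, maximum 37), the ciliary gene Cep290 (47075 and 74), the neutral amino acid transporter gene Slc6a15 (56901 and 39) and Ppp1r12a and Pawr, at intervals of 42607 and 43979. Kitl also held 2 intervals deep inside the gene, of 16894 and 32590. Without a gene-end interval were Nts, the neurotensin gene, the craniofacial homeobox gene Alx1, the muscle determination genes Myf5 and Myf6, the synaptic genes Syt1 and Ppfia2 and the inner ear genes Ptprq and Otogl. Another 15 of the uncovered genes carry provisional Gm names, among them the 7 genes of the bin from 104 to 105 Mb, the richest in genes of those without an interval. In that bin the promoter windows of Gm4340, Gm8764, Gm20765, Gm21293, Gm21304 and Gm21312 each had 2 CpG and 47.0% GC. Whether reads can be placed uniquely in such similar genes was not tested. Myf5 lay 673778 bp from the nearest interval. By 1-Mb bin, 5 of 11 genes were covered at 100 to 101 Mb and 1 of 4 at 103 to 104 Mb. At 105 to 106 Mb 2 of 3 were covered and at 108 to 109 Mb 3 of 5, whereas none of the 7 genes from 106 to 108 Mb was.

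The longest gap ran from 46047374 to 50586188, or 4538815 bp, and contained a single protein-coding gene, Grik2, which encodes a kainate glutamate receptor subunit. It included the only run of 3 empty 1-Mb bins in a row, from 47 to 50 Mb. Other empty bins held parts of Ctnna3, Lrrtm3, Pcdh15, Mgat4c, Nkain2, Trhde and Oprm1. Lrrtm3 encodes a synaptic adhesion protein, Pcdh15 a cadherin of hair cells and Oprm1 the mu opioid receptor. Of the 16 empty bins 12 held at least part of a protein-coding gene and 4 none. Ctnna3, an alpha-catenin gene of 1573570 bp, did have an interval at its start (total signal 77928, maximum 59), with empty bins further inside.

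A high number of genes did not by itself go with many intervals. The bin from 129 to 130 Mb had as many genes as that from 128 to 129 Mb, 50, but 6 intervals, and 2 of its genes were covered. It holds olfactory receptor genes, which are expressed in sensory neurons of the nose. Of the 68 olfactory receptor genes on the chromosome 3 had a gene-end interval (4.41%, exact 95% interval 0.919 to 12.4): Olfr763 (total signal 42994, maximum 14), Olfr765 (19150 and 11) and Olfr9 (18089 and 23). Their maxima were below the chromosome's median of 26. All 8 vomeronasal receptor genes, all 15 trace amine receptor genes and all 5 genes of NKG2D ligands, which signal cell stress to killer cells, were without. Counts of 0 allow shares up to 36.9%, 21.8% and 52.2% by the exact binomial interval. Genes of such clusters lie side by side and are not independent. Among 6 genes named Zfp, 4 were covered.

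Some intervals were dense where protein-coding genes were absent. The bin from 66 to 67 Mb held 14 intervals and overlapped no protein-coding gene. Of these, 12 stood within 122.4 kb, from 66800398 to 66922821, between 86368 and 206258 bp from the nearest gene end, that of Reep3, which shapes the endoplasmic reticulum. The highest called region there reached 96831 in total signal and 65 in maximum, and the one nearest to Reep3 83083 and 53. Both exceeded the median of distal regions, 22474 and 20 for those over 10000 bp from a gene end. The medians over all 11 called regions of the bin were 28644 and 22. Of the 14 intervals 8 overlapped a non-coding RNA gene, among them Gm40677, Gm40678 and 1110002J07Rik. Beyond Reep3 follow Jmjd1c, a histone demethylase family gene with 6 intervals in its body, and Egr2, a growth-response factor gene with an interval of 8610 bp (total signal 100669, maximum 50). The interval farthest from any gene end lay 1167767 bp from the nearest one, near Cited2, with a total signal of 17964. The next lay 675694 bp from Tmpo (48155, maximum 44), then 2 of the intervals from 66 to 67 Mb, and 619701 bp from Nmbr (22997, maximum 23). The bin from 126 to 127 Mb held 10 intervals and overlapped Ctdsp2 (164243), Atp23 (97680) and Lrig3 (63395), all covered. By gene midpoints it was 1 of 4 bins that shared the most intervals per gene, 5.0.

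Of the 1363 intervals 563 (41.3%) stood at a gene end, 429 (31.5%) inside a gene and 371 (27.2%) between genes. Over all chromosomes the shares were 44.5%, 30.1% and 25.4%. Split by strand, 423 intervals touched a gene start, 68 a 3′ end and no start, and 72 a gene whose strand is not in the promoter table. Intervals at starts had the highest median maximum of these classes, while those at 3′ ends were about as wide. The median width was 3346 bp at starts, 3331.5 bp at 3′ ends, 2413 bp inside genes and 2164 bp between genes. The median maximum signal was 43 at starts, 21 at 3′ ends, 21 inside genes and 20 between genes. The median total signal was 49093 at starts, 47504.5 at 3′ ends, 27728 inside genes and 22423 between genes. Signal belongs to the whole called region, so a region split across classes counts in each of them. Pieces of split regions made up 44.1% of the intervals at 3′ ends, 21.3% at starts, 22.6% inside genes and 22.6% between genes. The quartiles of the maximum were 32 and 57 at starts, 15.5 and 45 at 3′ ends, 16 and 31 inside genes and 16 and 28 between genes, so the middle ranges of starts and of intervals between genes did not meet. Intervals that touched the starts of 2 or more genes, 49 in number, had a median total of 74237 and a median maximum of 48. These differences describe the list and were not tested.

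**Figure D2:**
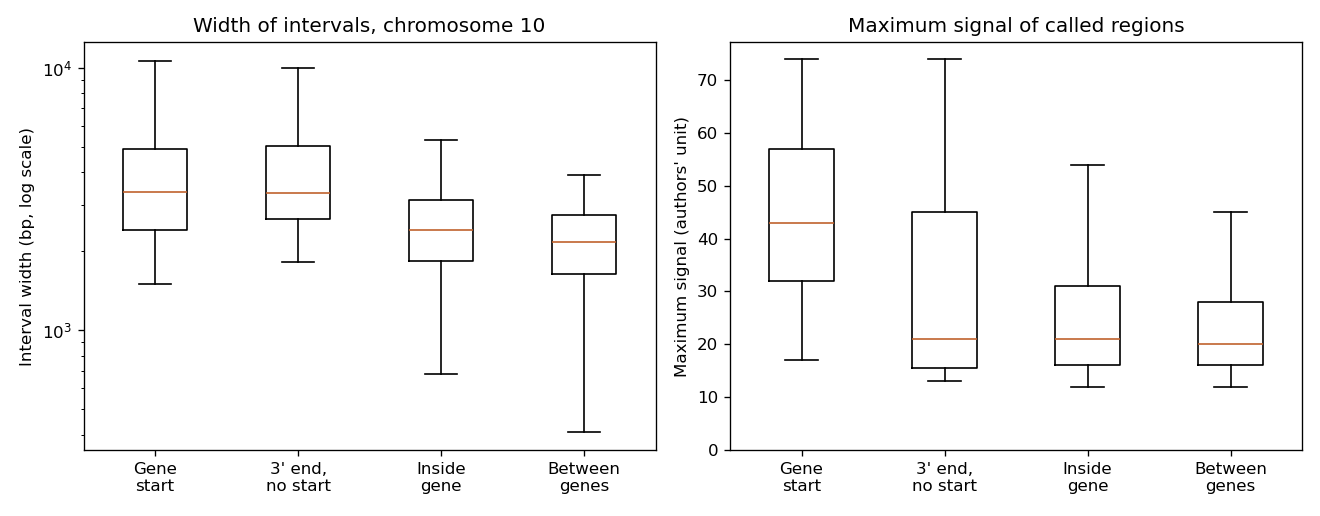
Width of chromosome 10 intervals (left, bp on a log scale) and maximum signal of their called regions (right, authors' unit) by position. Boxes span the quartiles with the median in orange, whiskers the 5th and 95th percentiles; the median maximum is 43 at gene starts and 20 between genes.

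The 5 highest maxima ran from 90 to 95. The maximum of 95, which ranked 14 among called regions of all chromosomes, belonged to an interval within the outer ends of the ubiquitin ligase gene Rnf126. That interval stood 2229 bp from the nearest gene end, but the promoter window at the listed start of Rnf126 was overlapped by an interval. The start shared by Ormdl2, a regulator of sphingolipid synthesis, and Sarnp, an mRNA export factor gene, had 94 in an interval of 2470 bp. Cand1, which exchanges substrate receptors of cullin ligases, had 91, and Nus1, needed for dolichol synthesis, 90. The interval over Mob3a and Izumo4 also reached 90. Total signals of these 5 ran from 49174 at Ormdl2 and Sarnp to 179272 at Mob3a and Izumo4. Their widths ran from 2470 to 15940 bp at the same places. None was thus among the 5 widest intervals, of which the narrowest had 16988 bp.

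Gene starts and not 3′ ends carried most of the gene-end intervals. Of 829 protein-coding genes with a known strand 471 had an interval within 1000 bp of the start (56.8%, exact 95% interval 53.4 to 60.2) and 182 within 1000 bp of the 3′ end (exact 95% interval 19.2 to 24.9%). Both ends were covered at 153 genes, the start alone at 318 and the 3′ end alone at 29. Short genes count at both ends with 1 interval, but among the 642 genes over 5000 bp long the shares were still 63.2% and 20.2%. Over 541 genes longer than 10000 bp an interval covered the start at 60.6% of genes, and the point 5000 bp upstream at 8.32%. Around the 3′ end the share was 11.3% at the end itself, with 7.02% at 5000 bp inside the gene and 12.8% at 5000 bp beyond it. Where an interval at a start held its own maximum, 393 in number, that maximum lay at a median of -2 bp from the nearest start (quartiles -80 and 171 bp), and 67.4% lay within 250 bp.

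**Figure D3:**
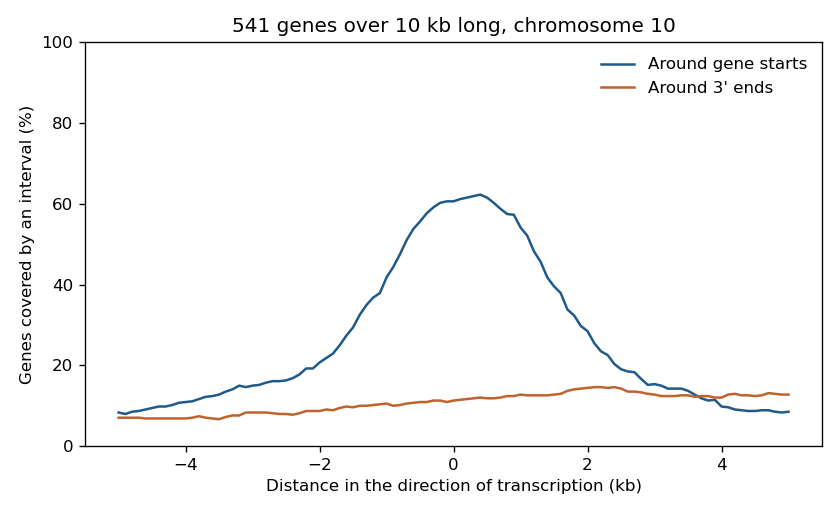
Share of 541 chromosome 10 genes over 10 kb long that are covered by an interval (y axis, %) at each distance from the gene start (blue) and from the 3′ end (orange), in the direction of transcription (x axis, kb). The start curve stands at 60.6% at 0 and at 8.32% at 5 kb upstream, whereas the 3′ curve stays under 15%.

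Long genes held intervals of their own. Syn3, a synapsin gene of 450181 bp, had 20 intervals along its body, with only a low one at its end (total signal 22881, maximum 15). The matrix metalloproteinase inhibitor gene Timp3 lies inside Syn3; it held 5 of them and had no interval at its ends. Tspear had 11 intervals in its body, the cadherin gene Cdh23 9 and the phosphatase gene Ppm1h 9, all without one at the gene's ends. The kinase gene Bcr had 10, Col18a1 9 and the histone methyltransferase gene Dot1l 7, each with a gene-end interval too. Over the chromosome 74 genes had an interval in the body and none at their ends, and 337 had neither. Sgk1 and Dyrk2 were among the 74. An interval overlapped the promoter window at the listed start of Dyrk2, inside the annotated gene, but none overlapped that of Sgk1. Counting any listed start, 59.2% of the genes with a known strand were covered.

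CpG number went with coverage of a start. The 472 windows overlapped by an interval had a median of 24 CpG (quartiles 16 and 31), against 4 (quartiles 1 and 10) in the 357 windows without one. Over all chromosomes the medians were 23 and 5. The share covered was 12.7% of 213 windows with up to 4 CpG, 55.3% of 76 windows with 10 to 14 and 90.6% of 160 windows with 30 or more. GGGCGG was found in 70.1% of windows with an interval and 25.8% of those without, where 46.3% of all promoter windows of all chromosomes hold it. TATAAA went the other way, at 7.63% and 24.6%, with 13.3% of all windows. CCAAT was about as frequent in both, at 36.4% and 38.1%, with 39.2% of all windows. The AP-1 letters stood at 4.45% and 6.72% (7.03% of all windows), CRE at 2.33% and 1.68% (2.33%) and NRF1 at 3.18% and 0.560% (1.33%). Split the same way, windows of all chromosomes held GGGCGG at 70.4% and 27.1%, TATAAA at 5.83% and 19.3% and CCAAT at 39.8% and 38.7%. There the AP-1 letters stood at 4.08% and 9.39%, CRE at 3.57% and 1.34% and NRF1 at 2.45% and 0.442%. GGGCGG, the CRE and the NRF1 motif contain CpG themselves, so their shares are not separate from the CpG number. A match is a run of letters only, and none of these shares was tested.

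**Figure D4:**
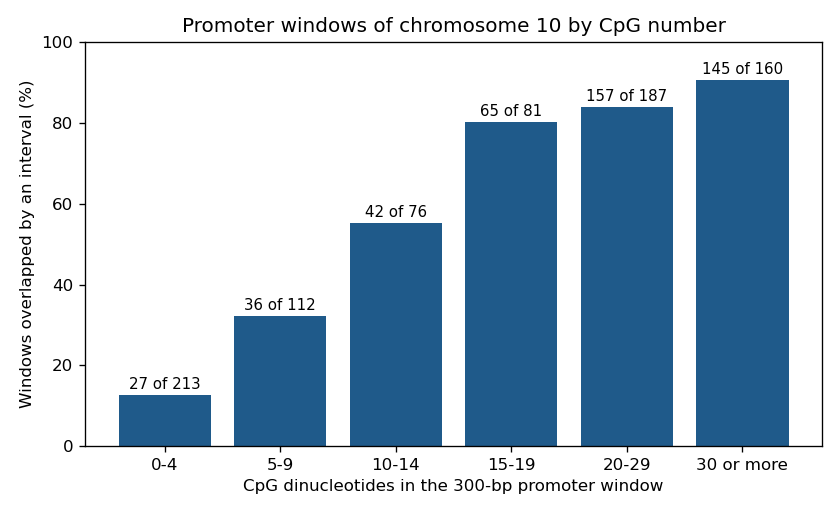
Share of chromosome 10 promoter windows of 300 bp that are overlapped by an interval (y axis, %), by the number of CpG in the window (x axis); numbers above the bars give windows with an interval of all windows. The share is 12.7% at up to 4 CpG and 90.6% at 30 or more.

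The exceptions at either end can be named. The 15 windows with 30 or more CpG and no interval belonged to Aig1, Cfap410, Diras1, Dnajb12, Eef2, Fam184a, Grip1, Map7, Nkain2, Nuak1, Plxnc1, Samd5, Slc1a6, Stk11 and Tab2. Grip1, Nkain2, Plxnc1 and Slc1a6 act in neurons, whereas Stk11, a tumour suppressor kinase, Tab2, a signalling adaptor, and Eef2 are broadly used. Stk11 had an interval within 1000 bp of its ends that did not reach the 300-bp window. The 27 windows with up to 4 CpG and an interval included the collagen gene Col6a1, Cfd, the complement factor D gene of fat cells, Cyp27b1, Gzmm, Tbxa2r and the olfactory receptor genes named above. The interval over the start of Col6a1 was 11923 bp wide, at 144531 in total signal and 36 in maximum. Gzmm, Tbxa2r and Cyp27b1 had higher totals, 454788, 222946 and 193222, in regions shared with neighbours. In the printed window of Col6a1 the AP-1 letters are the single capital run, as they are in that of Nts, which had no interval.

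Gene lists on the chromosome were read against its own share of 58.9% and against the median total signal of 55458 and maximum of 44 over the 590 covered genes. These medians, and those of the lists, run over genes, so a shared called region counts once for each of its genes. Cirbp and Midn, for example, both enter the growth and stress response list at 328386. Of 22 matrix and fibroblast genes 13 had a gene-end interval (59.1%, exact 95% interval 36.4 to 79.3), a share close to that of the chromosome. Of the 13, 9 had an interval at their start, 3 have no known strand, and Mmp11 was touched only at its 3′ end, by the region at Smarcb1. They included Mmp19 (153759), the tetraspanin gene Cd63 (150979), Col6a1, the procollagen protease gene Adamts14 (72853) and the stromelysin-3 gene Mmp11 (70653). The other collagen VI gene Col6a2 (48384), the matricellular gene Ccn2 (37786), the connexin gene Gja1 (32091) and the growth factor gene Igf1 (56418) were covered as well. Col10a1, Col13a1 and Dcn were without, as were Lum and Lama2. Among the 9 genes without a gene-end interval, 3 had an interval in their body, and Lama2 had 3 there. Dcn and Lum, small proteoglycan genes that mark fibroblasts, were 165022 and 140600 bp away from any interval. Some defining genes of the labelled cell type were thus covered and others not, and the list as a whole did not stand apart from the chromosome's share. The median maximum of the covered matrix genes was 33.

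Growth and stress response genes were covered at 14 of 16 (87.5%, interval 61.7 to 98.4), with a median total of 96208 and a median maximum of 54. Next to Cirbp and Midn the highest were the stress factor gene Ddit3 (177493), the kinase gene Mknk2 (176662) and Ddit4, an inhibitor of mTORC1 (128385). Egr2, the antiproliferative gene Btg1 (91747), the phosphatase gene Dusp6 (59704, maximum 67) and the cytokine signalling inhibitor gene Socs2 (73669) were covered too, and Gadd45b and Sgk1 were not. Genes of the cell cycle, p53 and growth control were covered at 19 of 22 (86.4%, interval 65.1 to 97.1). Stat6 (271936), Cdk4, the Hedgehog effector gene Gli1 (99179), the forkhead gene Foxo3 (92423, maximum 72) and Mdm2, the ligase that degrades p53 (83925, maximum 63), led them. Cdk2 (52487, maximum 76), Apaf1 (55312, maximum 70), which triggers caspases, and Hmga2, an architectural factor gene of embryonic cells (53820, maximum 34), followed. Dyrk2, the let-7 antagonist gene Lin28b and the imprinted zinc finger gene Plagl1 were without, and Plagl1 lay 70635 bp from the nearest interval.

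Chromatin genes were covered at 17 of 20 (85.0%, interval 62.1 to 96.8), with Mbd3, Tcf3, Nfic (221719), the remodeller subunit gene Smarcc2 (152324) and Baz2a (128073) in front. Tet1, which oxidises methylated cytosine (62947), the deacetylase genes Hdac2 (50796) and Sirt1 (31480) and the Polycomb-related gene L3mbtl3 (65096) were among the others. Dnmt3l, a germ cell cofactor of DNA methylation, Rfx4 and Scml4 were without a gene-end interval. Still, 2 of these 3 had an interval in their body, among them Scml4 with 4. Housekeeping and translation genes were covered at 16 of 18 (88.9%, interval 65.3 to 98.6), with a median total of 87713. Ndufs7, Uqcr11, Atp5d (249741), Polr2e (234983) and Rps15 (163189) had the highest totals. Eef2 and Txnrd1 were without a gene-end interval, though Txnrd1 had an interval in its body. The peak at Pa2g4, a growth regulator, was the highest of this list, with a maximum of 88.

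Developmental regulators were covered at 7 of 20 (35.0%, interval 15.4 to 59.2), with a median total of 44833 and a median maximum of 38. The covered ones were the growth factor gene Gdf11 (131483), Gli1, the stem cell receptor gene Lgr5 (54956), the Notch effector gene Hey2 (44833), the Wnt inhibitor gene Wif1 (34513), Inhbe (20417) and the repressor gene Prdm1 (20163). Alx1 and Atoh7 were without, as were Neurog3, Neurod4, Olig3, Sim1, Nr2e1 and the mesenchymal factor gene Tcf21. The 15 promoter windows found for this list had a median of 13 CpG, and the 19 found for the cell cycle list 25. For the matrix and fibroblast list, with 59.1% of genes covered, the median was 8 over 17 windows. The median was 24 for growth and stress response, 27 for chromatin and 21.5 for housekeeping and translation. The part of CpG number in the lists' shares was not tested.

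Markers of other cell types were counted in the same way. Haematopoietic markers stood at 6 of 15 (interval 16.3 to 67.7%), with Gzmm and Prtn3 in shared regions, then Icosl (37669), Cd24a (35803), the blood progenitor factor gene Myb (33632) and the lysozyme gene Lyz1 (33511, maximum 13). Only 3 of the 6 had an interval at their start, and the promoter windows of Prtn3 and Lyz1 were not overlapped. Aire, Elane and Ifng were without, as were Itgb2 and Prf1. Among the 9 haematopoietic markers without a gene-end interval, 2 had an interval in their body. Neuronal and sensory markers stood at 5 of 14 (35.7%), with the kinesin gene Kif5a (92287), Ank3 (50695), the vasopressin receptor gene Avpr1a (38819), Tafa2 (27930) and S100b (15703). An interval at the start was found for 2 of the 5, and the promoter window of S100b was not overlapped. Cdh23, Fabp7 and Grik2 were without. Markers of muscle, liver, pigment cells and eye stood at 3 of 10 (interval 6.67 to 65.2%): Gamt, Rdh5 and the melanosome gene Pmel (52487, maximum 76). An interval at the start was found for 2 of the 3. Rdh5 shared its region with Cd63 and Pmel with Cdk2, at the same total and maximum, and the list does not tell which gene a shared region belongs to. The part of other cell types in the list was not tested.

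**Figure D5:**
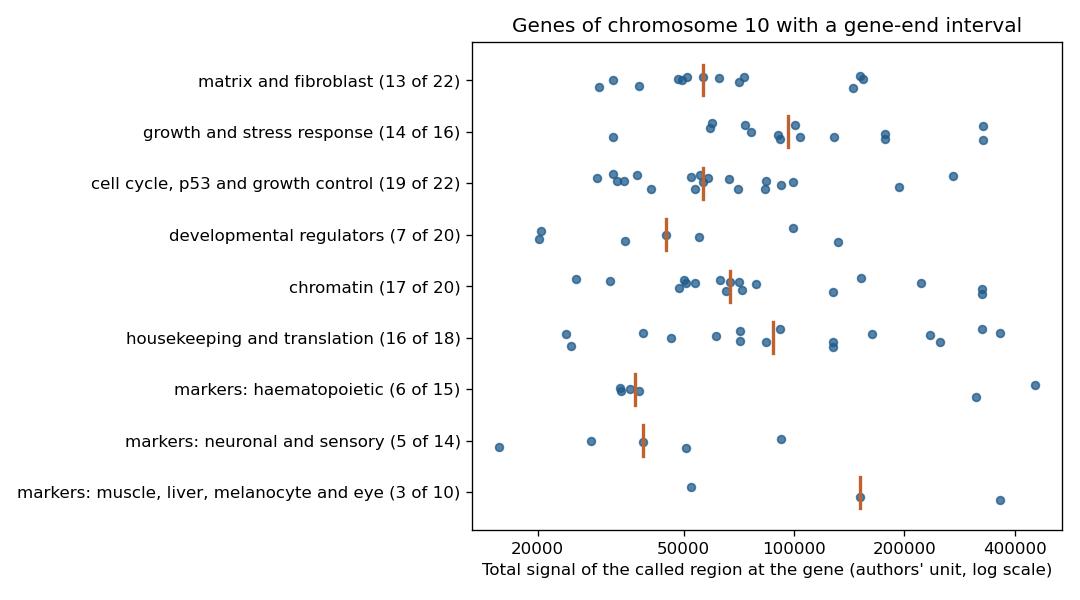
Total signal of the called region at each covered gene of the chromosome 10 lists (x axis, authors' unit, log scale), with each point 1 gene and the orange bar the median; the labels give covered genes of all genes in the list. The median is 96208 for growth and stress response genes and 44833 for developmental regulators. A called region shared by several genes gives a point for each of them.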

How the data were processed

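ATAC-seq signal was available as 1 list of intervals that the authors deposited for the Ezh2 knockout, with 6 columns and no header. The submitters' processing notes name Bowtie2 2.2.9, deepTools, SEACR and mm10. Settings, normalization, any control and how the 2 replicates were joined are not stated in the labels. From the column order of SEACR, the deposited total signal is a score of the area under coverage and the deposited maximum signal a height of coverage. Intervals repeating the same signal values and region of maximum were collapsed to 1 called region before signal was summarised. In medians over genes, each gene took its called region of highest total signal, so shared regions count more than once. On chromosome 10, 265 intervals (19.4%) do not hold their own maximum, and 170 gaps (median 1413 bp) separate intervals of 1 called region.

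Genes and promoter windows came from RefSeq on GRCm38.p6. Intervals were binned by midpoint. A gene end was a window of 1000 bp on either side of an end, touched by at least 1 bp. The plan named genes by list and total signal, with the bins and regions at either extreme; further members of the lists and bins, genes with the most intervals in their body, the cluster from 66 to 67 Mb and the exceptions by CpG number were named after their values were seen. A gene that the rule takes is not reported here. Members and lists were chosen with earlier results of these data known. Depth is unknown, and binomial intervals cover counting over genes only. On simulated data the gene lookup was checked at 400 genes, with 0 errors. Python 3.11.15, numpy 2.4.6, pandas 2.3.3, scipy 1.17.1 and matplotlib 3.10.9 were used.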

Additional observations from a re-analysis of the deposited data

How the results depend on the processing

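Of 55 values under alternatives, 34 stayed within 1.5 times the reported value for a count, or within the 95% interval of a share or median, and 21 did not. The densest 1-Mb bin was that from 80 to 81 Mb by count, by covered bases, by called regions, above the list's median total signal and with intervals that hold their own maximum, where it had 59 intervals in place of 94. As called regions it had 63. The densest 10-Mb bin, with 277 intervals, had 410 with shifted bins and 193 above the median. Empty 1-Mb bins numbered 27 above the median total signal, and the emptiest whole 10-Mb bin had 6 intervals there and 25 with bins shifted to start midway. The gene-end share of intervals, 41.3%, was 46.9% with windows of 2500 bp, 29.9% by midpoint, 49.6% with all annotated genes, 56.7% above the median total signal and 45.4% with intervals that hold their own maximum. The share inside genes was 28.0% with windows of 2500 bp, 39.8% by midpoint and 27.1% above the median total signal, and that between genes 30.3% by midpoint, 17.8% with all annotated genes and 16.2% above the median. Covered genes, 58.9%, came to 62.4% with windows of 2500 bp, 48.4% above the median, 35.1% above the upper quartile of total signal and 64.5% without olfactory, vomeronasal and trace amine receptor genes. Over all chromosomes the shares above the median and the upper quartile were 32.7% and 19.6%. The median total signal was 33363 with every interval on its own and 27996 with called regions of 1 interval. Per base it was 11.6 on chromosome 10 and 11.6 over all chromosomes. Settings added after the data were seen, gene starts only (56.8%), any listed start (59.2%) and regions of maximum outside the intervals (59.2%, 3 more genes), moved little. No uncovered gene had an end in a gap between intervals of 1 called region. No paired analysis was possible because the list has no value per replicate, and for the same reason no replicate could be left out.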
